A study of Homo sapiens with 6 samples.

Results

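The histone genes of the count tables were studied here, 87 of the 19934 gene symbols. They were chosen by name alone, as every symbol that starts with HIST1H to HIST4H, H1F, H2AF or H3F, since none of the newer names (H1-, H2AC, H2BC, H3C, H4C, H3-, H2AZ) occurs in the tables. By symbol alone, 71 of these were classed as replication-dependent cluster genes (HIST1 to HIST4) and 16 as replacement and linker variants. RNA was sequenced from NCI-H1299, an established human lung cancer line that lacks p53, in 3 groups of 2 biological replicates. All cells were of the same genotype, labelled WT, and all were transfected over 4 days: with control siRNA (si-Ctr), with siRNA against SET (si-SET) or with siRNA against ZBTB11 (si-ZBTB11). SET is a histone-binding oncoprotein and ZBTB11 a zinc finger protein of the BTB family, and the study asked how their depletion changes transcription. Which oligo each knockdown library received is not given in the labels, and each group holds 1 cell line in 2 libraries.

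Histones are the proteins on which DNA is wound: H2A, H2B, H3 and H4 form the core of the nucleosome and H1 binds the linker between nucleosomes. Most cluster genes have no introns and are transcribed mainly in S phase. Their mRNAs end in a conserved stem-loop, bound by SLBP, in place of a poly(A) tail. Some cluster genes also make polyadenylated transcripts in cells that divide slowly or differentiate. Replacement variants such as H2AFZ, H3F3A and H3F3B are made throughout the cell cycle from polyadenylated mRNAs, and H1F0 is the linker histone known for its rise when cells stop dividing.

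The libraries held 16653115 to 17694522 counts, so that 3 counts, the floor used here, correspond to 0.169 to 0.179 CPM (counts scaled to library size by TMM), a limit that covers counting error only. Each target was lowest in its own knockdown. Counts of SET were 11656 and 11007 in si-Ctr, 1032 and 1031 in si-SET and 11441 and 11244 in si-ZBTB11. For ZBTB11 they were 925 and 1075 in si-Ctr, 846 and 708 in si-SET and 548 and 544 in si-ZBTB11. ZBTB11 was at 0.549 of the control in si-ZBTB11 (log2 fold change −0.86, adjusted p = 4.45e-17), and it was also lower in si-SET, at 0.765 of the control (−0.39, adjusted p = 2.12e-05). Of 6 epithelial markers, the keratins KRT8 (351 to 453 CPM) and KRT18 (400.2 to 483 CPM) made up nearly all of a sum of 764 to 944 CPM. KRT7 had 3.95 to 6.81 CPM, while EPCAM, KRT19 and CDH1 lay between 0 and 0.678 CPM. The 6 lung markers summed to 2.32 to 4.18 CPM and SFTPA1 was at 0. Sums of fibroblast, leukocyte and endothelial markers stayed between 0.834 and 6.78 CPM. Replicates differed by more than sampling noise (chi-square per degree of freedom 2.37 to 2.76) and were kept as separate samples.

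The 3′ stem-loops of the cluster genes the results turn on are shown here, since the cluster genes are grouped later by what is annotated past this element. All 66 cluster genes that were matched to the GENCODE version 44 annotation carried a 16-base stem-loop within 200 bases after the stop codon, and so did the variant gene H2AFX. Capitals mark the 16 bases and lower case the 6 bases on each side, read from hg38 5′ to 3′ on the strand of the gene.
HIST1H2AC: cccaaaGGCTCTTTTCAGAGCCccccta
HIST1H2AG: accaacGGCTCTTTTCAGGGCCacccac
HIST1H2BK: cccaaaGGCTCTTTTAAGAGCCacttaa
HIST1H2BJ: cctaacGGCTCTTTTAAGAGCCacccat
HIST1H2BH: cccaaaGGCTCTTTTCAGAGCCacttaa
HIST2H2BE: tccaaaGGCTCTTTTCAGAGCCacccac
HIST2H2AC: accaaaGGCTCTTTTTAGAGCCacccaa
HIST1H3G: taaaaaGGCTCTTTTAAGAGCCgcctac
HIST1H3H: cccaaaGGCTCTTTTCAGAGCCacccac
HIST1H4I: taaaaaGGCCCTTTTTAGGGCCcctaag
HIST1H1C: ccaaaaGGCTCTTTTCAGAGCCaccact
H2AFX: cacaaaGGCCCTTTTAAGGGCCaccacc
The stem-loop of HIST1H2BK lies at chr6:27146366-27146381, that of HIST1H2AC at chr6:26124669-26124684 and that of HIST2H2BE at chr1:149886188-149886203. The most frequent form, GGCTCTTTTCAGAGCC, occurred in 39 genes of the H1, H2A, H2B and H3 families, and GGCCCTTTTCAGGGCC in 10 genes of the H4 family.

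A few promoters are shown because each precedes a called H2B gene that lies head to head with an H2A gene, so that the window spans nearly the whole stretch between both. The windows are the 250 bases before the RefSeq start site (GRCh38.p14), on the strand of the H2B gene, which is the minus strand in each case. Capitals mark the CCAAT box, the TATAAA box and the octamer ATTTGCAT, each on either strand. In these windows matches overlap only where TTTATAAA holds TATAAA on both strands.
HIST2H2BE promoter: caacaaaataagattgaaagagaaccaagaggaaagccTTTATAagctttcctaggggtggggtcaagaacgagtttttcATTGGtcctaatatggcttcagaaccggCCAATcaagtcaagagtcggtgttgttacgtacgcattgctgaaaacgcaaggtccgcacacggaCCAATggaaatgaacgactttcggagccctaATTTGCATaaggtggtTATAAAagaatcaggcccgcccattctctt
HIST1H2BJ promoter: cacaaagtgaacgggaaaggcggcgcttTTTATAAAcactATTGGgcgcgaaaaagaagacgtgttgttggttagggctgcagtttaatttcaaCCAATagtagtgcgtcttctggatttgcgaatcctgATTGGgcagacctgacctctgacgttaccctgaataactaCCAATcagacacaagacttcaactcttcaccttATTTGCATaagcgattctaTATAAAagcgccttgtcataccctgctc
HIST1H2BK promoter: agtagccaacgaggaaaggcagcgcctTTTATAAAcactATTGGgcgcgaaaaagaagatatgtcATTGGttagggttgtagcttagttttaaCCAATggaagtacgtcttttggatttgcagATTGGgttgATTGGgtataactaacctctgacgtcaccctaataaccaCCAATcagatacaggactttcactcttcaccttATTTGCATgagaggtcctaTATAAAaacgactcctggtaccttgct
These windows lie at chr1:149886683-149886932, chr6:27132796-27133045 and chr6:27146859-27147108. Each holds the octamer once, and CCAAT occurs 3 times for HIST2H2BE, 4 times for HIST1H2BJ and 6 times for HIST1H2BK. RefSeq promoter windows were found for 75 of the 87 histone genes. The shares that follow were counted over the full RefSeq windows, from 250 bases before to 50 bases after the start site, and a gene with several start sites counts where any of its windows holds the motif on either strand. The octamer occurred in 68.8% of 16 cluster H2A and 69.2% of 13 cluster H2B promoters, in 0 of 6 cluster H1 and 0 of 13 cluster H4 promoters, and in 2.19% of the 27305 promoters of all genes. CCAAT was found in every cluster H1, H2A, H2B and H3 promoter, in 23.1% of 13 cluster H4 promoters and in 39.7% of all promoters. TATAAA was in 61.3% of the histone promoters and 14% of all. CCGGAAG and CAGGAAG spell out the consensus that the study named for ZBTB11. CCGGAAG was in 8% of histone promoters and 12.2% of all, CAGGAAG was in 6.67% and 15.2%, and neither was in the 3 windows shown.

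Most histone genes gave few counts. Of the 87, 13 had 0 counts in all libraries, 27 never exceeded 3 counts in a library, 48 had a mean under 10 counts and 25 a mean of at least 100. Summed over genes, the 16 variants held 1863 to 1996 CPM in each library and the 71 cluster genes 302 to 389 CPM. H3F3B, H2AFZ, H2AFV, H2AFX and H2AFY took 65.1% of all histone counts. Within the clusters, HIST1H2BK alone took 28.4%, and with HIST1H1C, HIST1H2AC, HIST1H4I and HIST1H2AG it made up 68.8%. Several genes usually counted among the main S-phase histones were close to the floor: HIST1H4C had 6 and 8 counts in si-Ctr, 6 and 5 in si-SET and 8 and 10 in si-ZBTB11. HIST1H1B had 3 to 10 counts and HIST1H1E 3 to 7 over the 6 libraries.

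Levels were also divided by exon length, taken as all GENCODE exons of a gene merged over its transcripts. On this scale HIST1H2BK stood highest, with a mean of 204.8 CPM per kilobase over the 6 libraries. H2AFZ followed at 150.5, H2AFX at 134 and H3F3B at 85.3, ahead of HIST1H4I at 78.8 and HIST1H1C at 72.1. H1FX, a linker histone variant, had 51.9 CPM per kilobase, H3F3A 47.8, HIST1H2AG 34 and HIST1H2AC 26.2. These values and their order depend on the exon length assumed. Merged exons come to 6134 bases for H3F3B, whose RefSeq gene spans 3346, and to 1668 for HIST1H2AC, whose RefSeq gene spans 519. With the shorter lengths both would stand higher. For H2AFZ, merged exons cover the whole gene of 2270 bases, although its transcripts have up to 5 exons. GENCODE gives HIST1H2BK 495 bases of exon, while RefSeq places its end 8073 bases past the stem-loop. The latter is a distance along the genome, which may include introns, and not an exon length. Which annotation the counting used is not given in the sources used here. In addition, 71% of the 31-base words of HIST1H2BK recur in other genes. Its near copy H2BFS had 0 counts in the si-Ctr and si-SET libraries and 1 and 2 counts in si-ZBTB11.

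**Figure D1:**
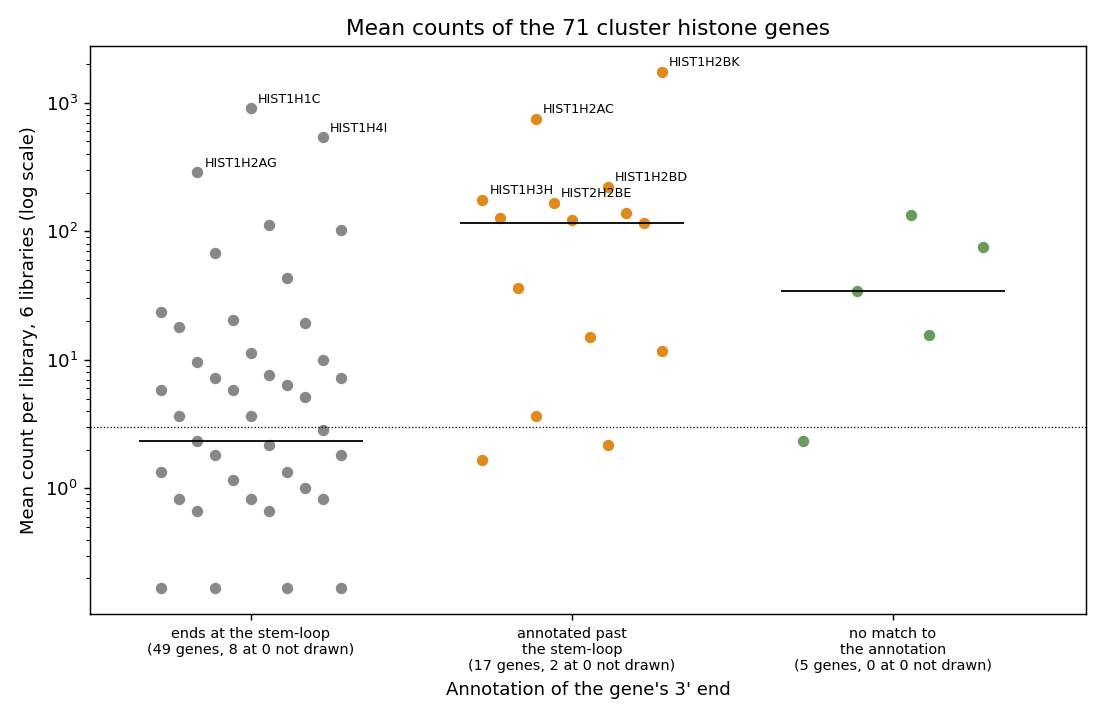
Mean count per library over the 6 libraries (log scale) of the cluster histone genes, split by whether the annotation ends at the stem-loop, runs at least 100 bases past it, or could not be matched; each point is a gene, black bars are medians over all genes of the column, the dotted line marks 3 counts, and genes at 0 are not drawn. The median is 2.33 counts for genes that end at the stem-loop and 116.3 for genes annotated past it. HIST1H1C, HIST1H4I and HIST1H2AG are high among the former. Counts are not scaled to gene length.

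Levels differed with what is annotated past the stem-loop, a split that was made after the counts had been seen. The 17 cluster genes that GENCODE or RefSeq extends by at least 100 bases past it showed 116.3 counts per library in the median, and the 49 genes that end there 2.33. The former group includes HIST1H2BK, HIST1H2AC, HIST1H2BD, HIST1H3H, HIST2H2BE and HIST1H2BJ. HIST1H2BJ ends 6424 bases further along the genome, with 1046 bases of merged exon in all. HIST1H1C, HIST1H4I, HIST1H2AG, HIST1H3G and HIST1H2BH were the genes with a mean of at least 100 counts among those that end at the stem-loop. These counts were not scaled to gene length, which differs between the groups. Among the extended genes, HIST2H2BE has 2224 bases of merged exon, though HIST1H2BK has 495, while HIST1H4I of the other group has 397. Whether the libraries were made from poly(A) RNA is not given in the sources used here.

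Upon SET depletion, 9 cluster histone genes fell and 2 variants rose. Of the 41 histone genes tested, 10 were lower and 2 higher at an adjusted p under 0.05 (edgeR's quasi-likelihood test), and 29 did not pass. This is 24.4% lower and 4.88% higher, beside 13.9% and 13.1% of the 13599 genes tested. The lower genes were 9 cluster genes (HIST1H2AC, HIST1H2AG, HIST1H2BK, HIST1H2BJ, HIST1H2BF, HIST2H2BE, HIST1H3G, HIST1H3H and HIST1H4I) and the variant H3F3B, and the higher ones were H1F0 and H2AFY2. Of the 31 cluster genes tested, 0 were called higher. The median log2 fold change was −0.34 over these 31, 0.04 over the 10 variants tested and 0.00 over all genes. At the criteria of the study, an unadjusted p under 0.05 with an absolute log2 fold change over 1, 3 histone genes passed against 2.15% of all genes: HIST1H2BF, HIST1H2BO and HIST3H2BB, each lower and each with at most 57 counts in a library.

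The sums by family are not separate evidence, since they include the genes called above, and they also include genes too low to test. HIST1H2AC held 56.9% of the cluster H2A counts, HIST1H2BK 62.5% of H2B, HIST1H3H 53.5% of H3 and HIST1H4I 68.7% of H4. Cluster H2A mRNA summed to 85.1 ± 0.0862 CPM (SD, n = 2) in si-Ctr and 61.6 ± 0.289 in si-SET, 72.4% of the control. Cluster H3 was at 65.2% of the control, with 24.9 and 21.5 CPM in si-Ctr and 15.3 and 15.0 in si-SET. Cluster H2B reached 83.2% and cluster H4 82.8% of the control. In these 4 families the si-SET libraries lay below both si-Ctr libraries. Cluster H1, of which 98.4% was HIST1H1C, had 50.7 and 50.6 CPM in si-Ctr and 52.4 and 61.7 in si-SET. The variants summed to 1996 and 1940 CPM in si-Ctr and 1960 and 1937 in si-SET, ranges that overlap. With 2 libraries in a group, an exact permutation test cannot go below p = 0.333, so these sums carry no test. In such bulk samples, a change in the share of cells in S phase and one in histone RNA per cell cannot be told apart. Neither was tested here. The paper reported no obvious effect of SET knockdown on the cell cycle of H1299 cells.

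**Figure D2:**
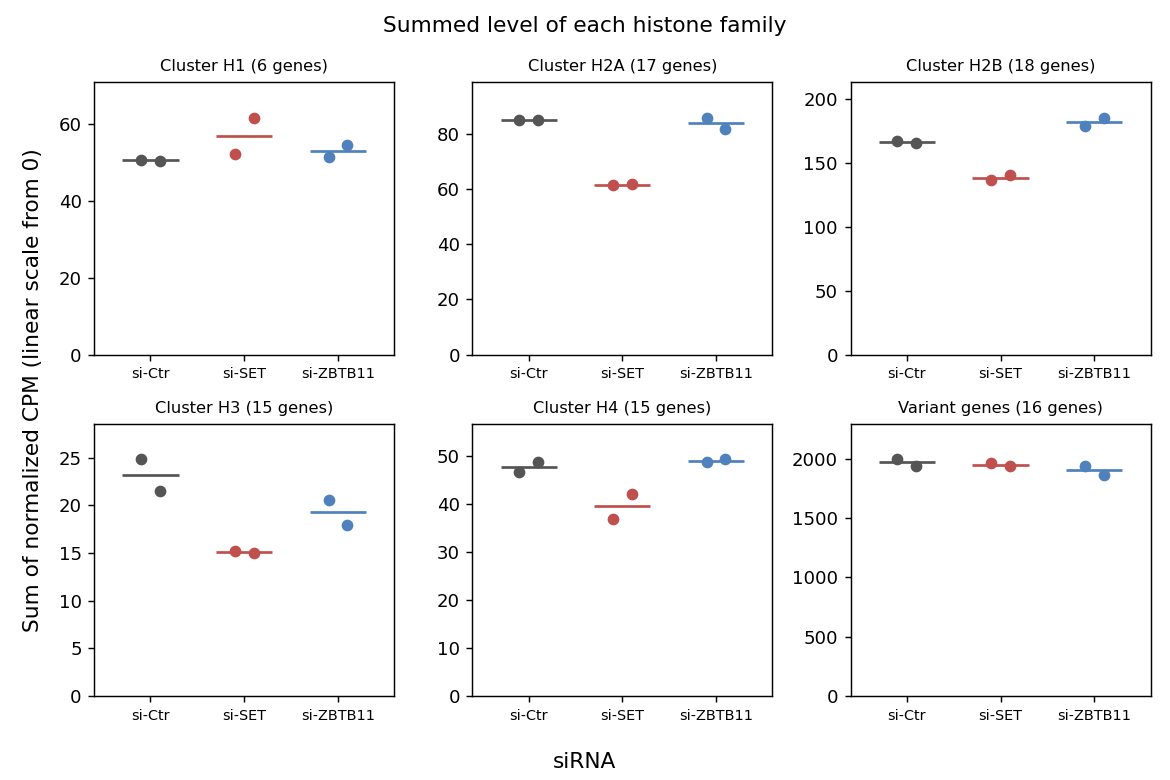
Sum of normalized CPM (linear axis from 0) over all genes of each cluster family and over the variant genes, with a point for each library, a bar at the mean, and colours for si-Ctr, si-SET and si-ZBTB11. Both si-SET libraries lie below both si-Ctr libraries for cluster H2A, H2B, H3 and H4, while the variants overlap at 1937 to 1996 CPM.

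Among the H2A genes, HIST1H2AC had 864 and 815 counts in si-Ctr, 600 and 568 in si-SET and 830 and 825 in si-ZBTB11. Only the si-SET libraries stood apart, and its log2 fold change upon SET depletion was −0.54 (standard error, SE, 0.08; adjusted p = 1.75e-08). HIST1H2AG, whose gene lies at chr6:27133043-27133535, had 342 and 345 counts in si-Ctr, 233 and 211 in si-SET and 305 and 287 in si-ZBTB11. It fell by 0.65 on the log2 scale upon SET depletion (SE 0.12, adjusted p = 5.27e-06), with no overlap between the groups. The other 5 cluster H2A genes tested did not pass, among them HIST1H2AE with 77 and 55 counts in si-Ctr and 62 and 74 in si-SET.

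Among the H2B genes, HIST1H2BK, the cluster gene with the most counts, had 1769 and 1682 in si-Ctr, 1477 and 1439 in si-SET and 2063 and 1999 in si-ZBTB11. The 3 groups did not overlap, and the change upon SET depletion was small but precise, −0.26 (SE 0.06, adjusted p = 9.53e-05). HIST2H2BE, at chr1:149884459-149886682 on the minus strand, had 220 and 213 counts in si-Ctr, 131 and 145 in si-SET and 144 and 147 in si-ZBTB11. Both knockdowns lay below the controls, by −0.67 for si-SET (SE 0.15, adjusted p = 1.82e-04). HIST1H2BJ had 137 and 113 counts in si-Ctr and 82 and 97 in si-SET, a change of −0.50 on the log2 scale (SE 0.19, adjusted p = 0.0433). HIST1H2BF had 43 and 57 counts in si-Ctr and 10 and 29 in si-SET, the largest fall among the called histone genes at −1.37 (SE 0.36, adjusted p = 0.00215) and also the least precise. It was −0.78 without si-SET replicate 1 and −2.36 without si-SET replicate 2. HIST1H2BF could not be matched to a single current gene, nor could HIST1H2BC, HIST1H2BE, HIST1H2BG and HIST1H2BI.

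For H3 and H4, HIST1H3G had 159 and 140 counts in si-Ctr, 75 and 88 in si-SET and 114 and 94 in si-ZBTB11. It was the most reduced H3 gene upon SET depletion, with −0.89 (SE 0.19, adjusted p = 7.72e-05). HIST1H3H had 217 and 192 counts in si-Ctr and 154 and 130 in si-SET and fell by 0.55 (SE 0.15, adjusted p = 0.00278). HIST1H4I, the H4 gene with 68.7% of the cluster H4 counts, had 564 and 564 counts in si-Ctr and 402 and 503 in si-SET. The si-SET replicates of HIST1H4I were apart, and it changed by −0.34 (SE 0.10, adjusted p = 0.00404), with −0.16 without si-SET replicate 1 and −0.54 without si-SET replicate 2.

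Variants moved in both directions. H1F0, at chr22:37805229-37807432, had 755 and 694 counts in si-Ctr, 1181 and 1062 in si-SET and 833 and 814 in si-ZBTB11. All 3 groups were apart, and H1F0 rose upon SET depletion by 0.61 (SE 0.07, adjusted p = 9.02e-12), the smallest adjusted p of any histone gene in this comparison. H2AFY2, which encodes a macroH2A that is found on silent chromatin, had 259 and 247 counts in si-Ctr, 386 and 358 in si-SET and 365 and 353 in si-ZBTB11. It rose by 0.54 (SE 0.11, adjusted p = 8.52e-05). Part of H2AFY2 overlaps AIFM2, which had 854 and 807 counts in si-Ctr and 846 and 827 in si-SET. H3F3B, 1 of the pair of genes for the same H3.3 protein, had 10036 and 9456 counts in si-Ctr and 9141 and 8541 in si-SET and fell by 0.16 (SE 0.04, adjusted p = 2.80e-04). H3F3A, the other gene of this pair, did not pass, with 3027 and 2824 counts in si-Ctr, 3245 and 2991 in si-SET and a change of 0.07 (SE 0.05, adjusted p = 0.252). H2AFZ, H2AFV, H2AFX, H2AFY, H2AFJ and H1FX did not pass either, with log2 fold changes from −0.07 to 0.07 in this comparison. HIST1H1C had 872 and 834 counts in si-Ctr and 915 and 1033 in si-SET, a change of 0.17 (SE 0.07, adjusted p = 0.0649).

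**Figure D3:**
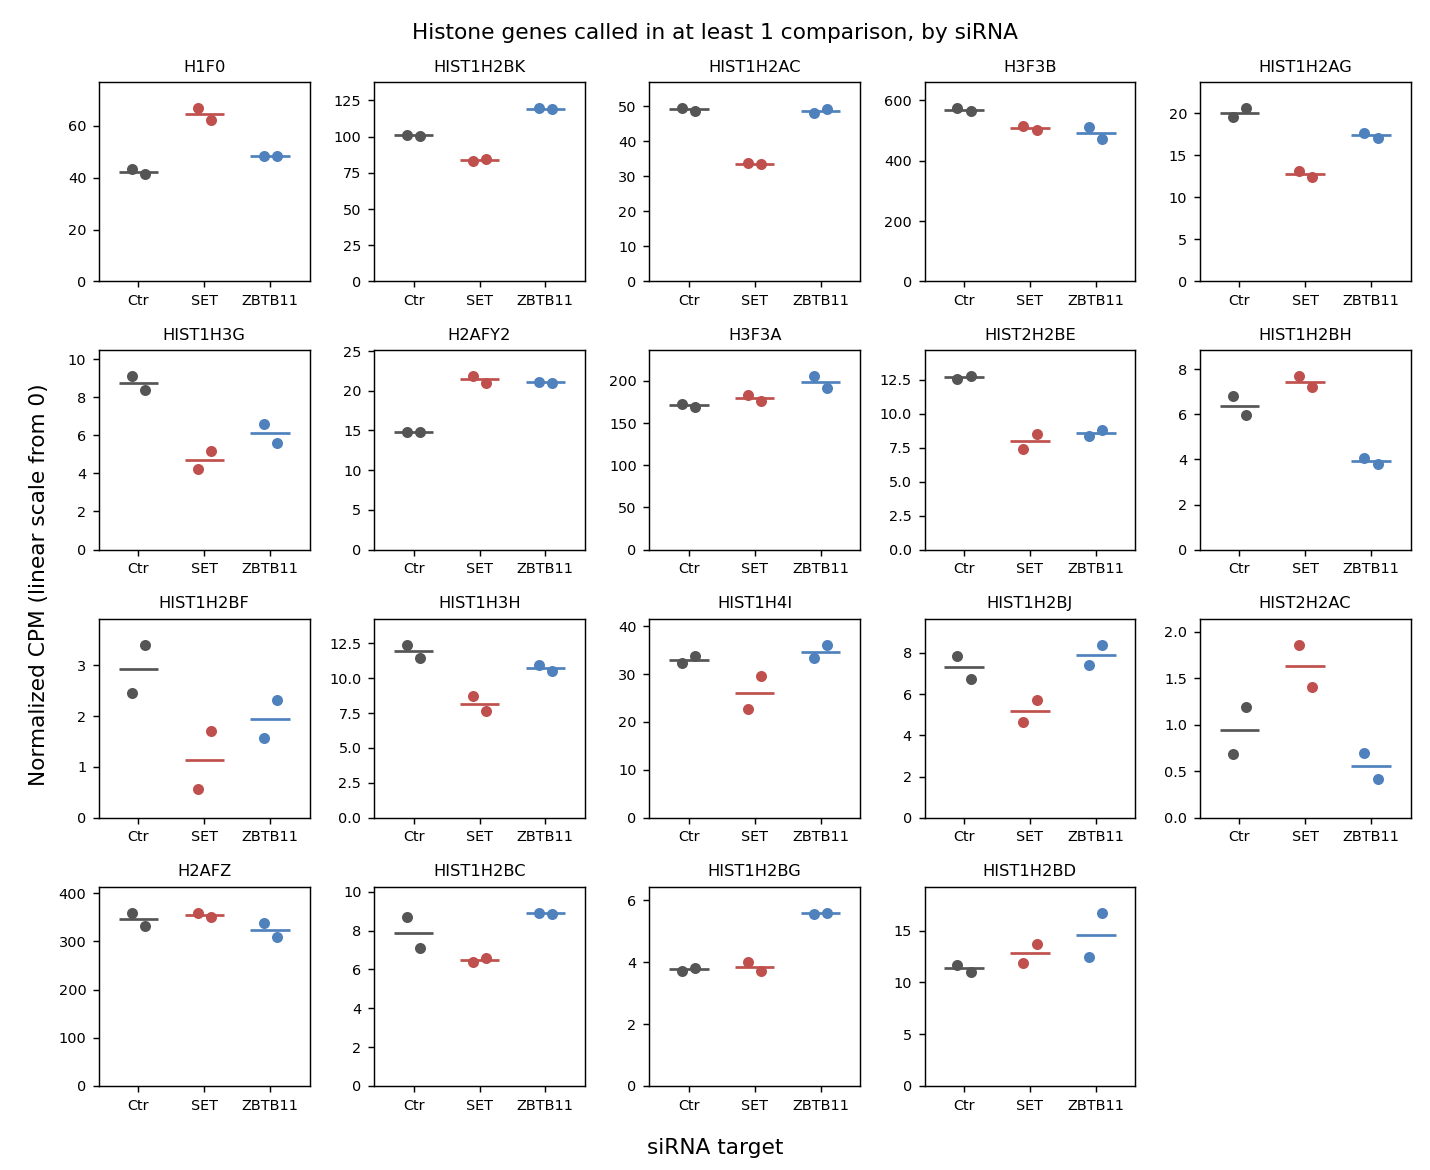
Normalized CPM (linear axes from 0) of the 19 histone genes called in at least 1 comparison, with a point for each library, a bar at the group mean, and the siRNA target on the x axis. HIST1H2AC stands at 48.6 to 49.0 CPM in si-Ctr and si-ZBTB11 on average and at 33.6 in si-SET, HIST1H2BK is lowest in si-SET and highest in si-ZBTB11, and H2AFY2 is higher in both knockdowns.

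The count of 10 lower genes was 7 without si-SET replicate 1, and DESeq2's Wald test called 6 of the 10. The 3 genes at the criteria of the study were 1 without si-Ctr replicate 1 or si-SET replicate 1. The calls of HIST1H2BF, HIST1H4I and HIST1H2BJ each ended without si-SET replicate 1 (HIST1H2BF also without si-Ctr replicate 2, and HIST1H2BJ also without si-Ctr replicate 1). DESeq2 did not call these genes either, nor HIST1H3H (adjusted p = 0.0777).

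Upon ZBTB11 depletion, histone genes were called in both directions. Of 39 tested, 6 were higher (H1F0, H2AFY2, H3F3A, HIST1H2BK, HIST1H2BG and HIST1H2BD) and 4 lower (H3F3B, HIST1H3G, HIST2H2BE and HIST1H2BH). This is 15.4% higher and 10.3% lower, against 9.94% and 10.5% of all 13534 genes. At the criteria of the study 0 passed (1 without si-ZBTB11 replicate 2), against 1.57% of all genes. The median log2 fold change was −0.06 over the 29 cluster genes tested, 0.02 over the variants and 0.00 over all genes. Cluster genes summed to 386 and 389 CPM, against 374 and 372 in si-Ctr, and cluster H2B to 109.5% of the control, while cluster H3 was at 83.1%. This comparison and the one of si-SET share the si-Ctr libraries, so their values are given side by side and are not independent.

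HIST1H2BK, lower upon SET depletion, rose upon ZBTB11 depletion by 0.25 (SE 0.05, adjusted p = 1.45e-04). HIST1H2BG had 65 and 64 counts in si-Ctr, 71 and 63 in si-SET and 96 and 94 in si-ZBTB11, and was higher by 0.57 (SE 0.22, adjusted p = 0.0486). HIST1H2BD had 205 and 184 counts in si-Ctr, 211 and 234 in si-SET and 215 and 281 in si-ZBTB11, where the replicates were far apart, and the change was 0.36 (SE 0.14, adjusted p = 0.0488). It was 0.13 without si-ZBTB11 replicate 2 and 0.56 without si-ZBTB11 replicate 1. HIST1H2BH, at chr6:26251614-26252075, went the other way with 119 and 100 counts in si-Ctr, 136 and 123 in si-SET and 70 and 64 in si-ZBTB11. It fell by 0.70 (SE 0.21, adjusted p = 0.00838), and its si-ZBTB11 libraries were the lowest of all. HIST2H2BE fell by 0.56 (SE 0.15, adjusted p = 0.00231) and HIST1H3G by 0.51 (SE 0.17, adjusted p = 0.0236).

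The H3.3 genes were called in opposite directions in these libraries. H3F3A had 3541 and 3217 counts in si-ZBTB11, above its si-Ctr counts, a change of 0.22 (SE 0.05, adjusted p = 1.00e-04). H3F3B had 8843 and 7911 counts in si-ZBTB11 and fell by 0.21 (SE 0.04, adjusted p = 3.27e-06). A part of H3F3B overlaps UNK, which did not pass in this comparison, with 1304 and 1195 counts in si-Ctr and 1250 and 1192 in si-ZBTB11. H2AFY2 rose by 0.51 (SE 0.12, adjusted p = 3.23e-04), and H1F0 by 0.20 (SE 0.07, adjusted p = 0.0468). H2AFZ, the gene of the larger count in the H2A.Z pair, had 6294 and 5556 counts in si-Ctr and 5835 and 5202 in si-ZBTB11 and did not pass (adjusted p = 0.0994), nor did its partner H2AFV with 3945 and 3726 against 3847 and 3838.

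**Figure D4:**
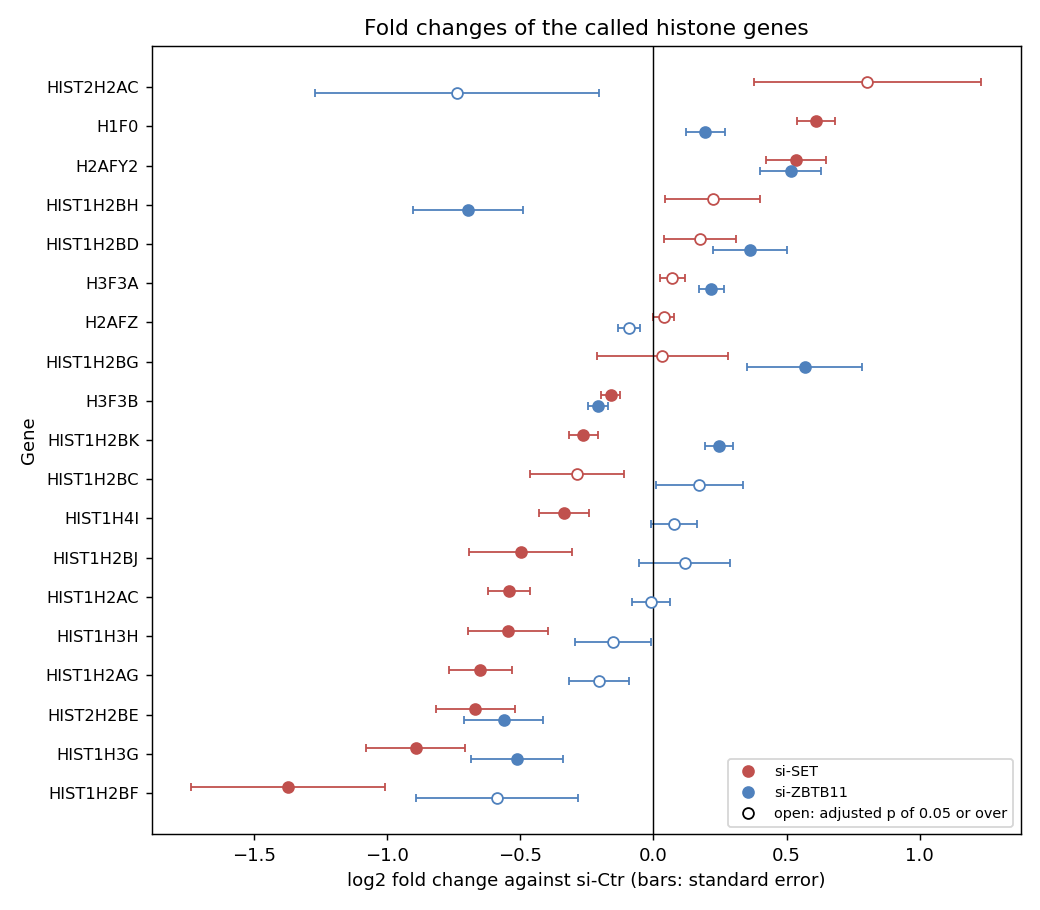
Log2 fold change against the shared si-Ctr libraries (x axis, bars are standard errors) of the 19 called histone genes (y axis), in red for si-SET and blue for si-ZBTB11, with filled points where the adjusted p is under 0.05. HIST1H2BK lies at −0.26 for si-SET and 0.25 for si-ZBTB11, while HIST2H2BE, HIST1H3G and H3F3B are filled and below 0 for both.

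The 6 higher genes were 3 without si-Ctr replicate 1 or without si-Ctr replicate 2, and the 4 lower genes were 2 without si-Ctr replicate 1. H1F0 and HIST1H2BG lost the call whichever library was left out, HIST1H2BD without si-Ctr replicate 1 or 2 or si-ZBTB11 replicate 2, and HIST1H3G and HIST1H2BH without si-Ctr replicate 1 or si-ZBTB11 replicate 2. DESeq2 called 3 higher and 1 lower, and HIST2H2BE was among the genes it did not call (adjusted p = 0.0654).

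The knockdowns were also compared with each other, which uses no control library and tests whether they differ. Of 37 genes tested, 7 were higher in si-ZBTB11 than in si-SET and 4 lower, 18.9% and 10.8%, against 9.61% and 8.58% of all 13549 genes. The higher ones were HIST1H2AC, HIST1H2AG, HIST1H2BK, HIST1H2BJ, HIST1H2BC, HIST1H4I and H3F3A, and the lower ones H1F0, HIST1H2BH, HIST2H2AC and H2AFZ. HIST1H2BK differed by 0.51 (SE 0.05, adjusted p = 1.68e-08) and HIST1H2AC by 0.53 (SE 0.08, adjusted p = 3.33e-06). H1F0 was lower in si-ZBTB11 by −0.42 (SE 0.07, adjusted p = 2.71e-05) and HIST1H2BH by −0.92 (SE 0.19, adjusted p = 7.09e-04). The difference was not detected for H2AFY2 at −0.02 (SE 0.10), H3F3B at −0.05 (SE 0.04) and HIST2H2BE at 0.10 (SE 0.16), nor for HIST1H3G at 0.38 (SE 0.20, adjusted p = 0.202). At the criteria of the study, 1 histone gene passed, HIST2H2AC, against 1.36% of all genes, and 2 passed without si-SET replicate 2, si-ZBTB11 replicate 1 or si-ZBTB11 replicate 2. Without si-SET replicate 1, the 7 higher genes were 4 and the 4 lower genes 2, and the latter were also 2 without si-ZBTB11 replicate 2. The calls of HIST1H2BC (any library), HIST1H2BJ, H2AFZ and HIST2H2AC (si-SET replicate 1 or si-ZBTB11 replicate 2), HIST1H4I (si-SET replicate 1), HIST1H2AG (si-SET replicate 2) and H3F3A (si-SET replicate 2 or si-ZBTB11 replicate 1) ended without the library named. Without these libraries, the difference of HIST1H4I went from 0.41 to 0.24 (si-SET replicate 1) and that of H2AFZ from −0.13 to −0.07 (si-ZBTB11 replicate 2).

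Among cluster genes with coordinates, 11 divergent pairs start within 1000 bases of each other. Of these, 5 are described, picked after their values were seen. HIST1H2BC, HIST1H2BE, HIST1H2BF, HIST1H2BG and HIST1H2BI had no coordinates here, so any pairs they form are missing. HIST1H2BJ and HIST1H2AG start 247 bases apart, had means of 116.3 and 287.2 counts, and both fell upon SET depletion. HIST2H2BE and HIST2H2AC start 235 bases apart. HIST2H2AC had 12 and 20 counts in si-Ctr, 33 and 24 in si-SET and 12 and 7 in si-ZBTB11. Its log2 fold change upon SET depletion was 0.80 (SE 0.43, adjusted p = 0.159), beside −0.67 for HIST2H2BE, and the difference within the pair was not tested. HIST1H2BK starts 250 bases from HIST1H2AH, which had a mean of 0.667 counts and was not tested, and HIST1H2BN, with a mean of 127.2 counts, starts 169 bases from HIST1H2AK, which had 0 counts. The pair HIST3H2A and HIST3H2BB had means of 122.7 and 11.7 counts, with 119 and 100 counts of HIST3H2A in si-Ctr and 101 and 129 in si-SET.

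Of 28 genes that make and process histone mRNA, 5 were higher and 2 lower upon SET depletion, 17.9% and 7.14%, beside 13.1% and 13.9% of all genes tested. Upon ZBTB11 depletion 2 were higher and 0 lower, beside 9.94% and 10.5% of all genes. Between the knockdowns, 2 were higher in si-ZBTB11 than in si-SET and 6 lower, beside 9.61% and 8.58%, and the 6 were 1 without si-SET replicate 1 and 3 without si-ZBTB11 replicate 1 or si-ZBTB11 replicate 2. The 2 were 1 without si-ZBTB11 replicate 1. Against si-Ctr, the 5 were 2 without si-Ctr replicate 1, the 2 lower genes were 1 without either si-Ctr replicate, and the 2 higher upon ZBTB11 depletion were 0 without si-Ctr replicate 1 and 1 without si-ZBTB11 replicate 1. SLBP, which binds the stem-loop, and NPAT, which activates cluster genes in S phase, did not pass in either comparison. CPSF2, a subunit of the cleavage complex that also cuts histone pre-mRNA, rose upon SET depletion by 0.27 (SE 0.05, adjusted p = 9.35e-07) and SYMPK, its scaffold, by 0.17. NCBP1, a subunit of the nuclear cap-binding complex, fell by 0.20 (SE 0.05, adjusted p = 0.00197), and LSM11, a U7 snRNP protein, was the other gene called lower. CTIF, a translation factor, rose upon ZBTB11 depletion by 0.33 (SE 0.08, adjusted p = 5.30e-04).

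Of 37 tested histone chaperones and importers, 8 were higher and 1 lower upon SET depletion, 21.6% and 2.7% beside 13.1% and 13.9% of all genes. Of 38 tested upon ZBTB11 depletion, 7 were higher and 2 lower, 18.4% and 5.26% beside 9.94% and 10.5%. Between the knockdowns, 5 of 37 were higher in si-ZBTB11 and 3 lower, 13.5% and 8.11% beside 9.61% and 8.58% of all genes. The count of 5 was smaller whichever library was left out. Without si-Ctr replicate 2, the 8 higher upon SET depletion were 4 and the 2 lower upon ZBTB11 depletion were 1. PTMA, a small acidic protein that binds linker histone, rose in both, by 0.27 (adjusted p = 5.09e-09) and 0.23 (adjusted p = 2.41e-07). NPM1 rose in both as well, by 0.17 and 0.20. SSRP1, a subunit of the FACT complex, rose by 0.23 upon SET depletion (adjusted p = 6.47e-06), where NAP1L4, a chaperone of the same protein family as SET, was the gene that fell, by 0.33 (adjusted p = 1.61e-07).

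Genes of replication and mitosis were tested in the same fits. Upon SET depletion, 14 of 33 S-phase genes were higher and 1, CCNA2, was lower (0 without si-Ctr replicate 1 or si-SET replicate 2), with a median log2 fold change of 0.17. This is 42.4% higher and 3.03% lower, beside 13.1% and 13.9% of all genes. MCM6 rose by 0.43 (SE 0.05, adjusted p = 1.20e-13) and PCNA by 0.35 (SE 0.05, adjusted p = 9.36e-09), both parts of the replication machinery. Of 20 mitosis genes, 10 were higher, or 50%, and 0 lower (4 higher without si-Ctr replicate 2), with MKI67 at 0.19, BIRC5 at 0.27 and HMMR at 0.44. Upon ZBTB11 depletion, 0 S-phase genes were higher and 6 lower, or 18.2% beside 10.5% of all genes, among them MCM4 by −0.32 (adjusted p = 8.20e-12) and RPA2 by −0.91 (adjusted p = 2.52e-25). The S-phase count of 6 was 2 without si-Ctr replicate 2 or si-ZBTB11 replicate 2 and 3 without si-ZBTB11 replicate 1. UBE2C was the mitosis gene called higher there, at 0.25, and 3 were lower, 5% and 15% beside 9.94% and 10.5% of all genes. The higher count grew without si-Ctr replicate 1 or si-ZBTB11 replicate 2, and the lower count shrank without si-ZBTB11 replicate 2. Between the knockdowns, 20 of 33 S-phase genes were lower in si-ZBTB11 than in si-SET and 1 higher, 60.6% and 3.03% beside 8.58% and 9.61% of all genes, and the median difference was −0.20 on the log2 scale. The 20 were 13 without si-SET replicate 1, and the 1 was 0 without si-SET replicate 2 or si-ZBTB11 replicate 1. Of the 20 mitosis genes, 9 were lower there and 0 higher, and the 9 were 4 without si-SET replicate 1 and 2 without si-ZBTB11 replicate 2. The list drawn up for cell cycle exit and differentiation also holds the cyclin genes CCND1 and CCND3, so its counts have no single reading. Of its 19 tested genes, 3 were higher and 5 lower in each knockdown, 15.8% and 26.3%. The shares of all genes were 13.1% and 13.9% for si-SET and 9.94% and 10.5% for si-ZBTB11. Between the knockdowns 4 were higher in si-ZBTB11 and 5 lower, 21.1% and 26.3% beside 9.61% and 8.58% of all genes, and fewer were lower without si-ZBTB11 replicate 1. For si-ZBTB11 the 3 were 1 without si-Ctr replicate 1 and 0 without si-Ctr replicate 2 or si-ZBTB11 replicate 1, and the 5 were 3 without si-Ctr replicate 2 or si-ZBTB11 replicate 1. CDKN1A, an inhibitor of cyclin-dependent kinases, fell by 0.34 upon SET depletion and 0.41 upon ZBTB11 depletion, and CCND1 by 0.40 and 0.68. CCND3 fell by 0.65 and 0.23, and E2F7, a repressor of the E2F family, fell by 0.45 upon SET depletion and had a log2 fold change of −0.10 upon ZBTB11 depletion. Their part in the histone values was not tested.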

How the data were processed

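RNA-seq libraries of NCI-H1299 cells, 2 each of si-Ctr, si-SET and si-ZBTB11, were prepared by the authors with an NEBNext Ultra RNA kit. Per the labels and the paper's methods, reads were aligned to hg38 with HISAT2 2.0.5 and counted per gene with featureCounts 1.5.0-p3, and the deposited values are raw counts. The annotation, the strand setting, the treatment of multi-mapping reads and any poly(A) selection are not given in the sources used here, which leaves near-identical and overlapping genes uncertain.

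Counts were compared with edgeR 4.0.16 in R 4.3.3 (TMM, filterByExpr, two-sided quasi-likelihood test, only the 2 groups of a comparison in the fit), with Benjamini-Hochberg adjustment over all genes tested. A gene was called at an adjusted p under 0.05. With 2 libraries in a group, p-values come only from models across genes. They set each change against a spread between these replicates that is estimated partly from all genes. The code was tested on simulated data. Of the 87 symbols, 82 were matched to GENCODE version 44 through the symbol itself, older symbols or RefSeq synonyms, tried in this order. Sequences came from hg38 and RefSeq, and tables were joined with Python 3.11.15. Alternatives were DESeq2 1.42.0, other scalings, other filters, 6 libraries in one fit, a replicate block and each library left out.

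The members, lists and tests were chosen with earlier results of these data known. Genes named are the targets, members called in any comparison, the 5 highest cluster and 5 highest other members per kilobase, fixed variant pairs, and up to 4 called genes per list. HIST1H4C, HIST1H1B, HIST1H1E, HIST1H2AE, HIST1H2BO, HIST3H2BB, H2AFJ, SLBP, NPAT, LSM11, CCNA2 and partners of divergent pairs were named after their values were seen.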

Additional observations from a re-analysis of the deposited data

Results flagged for a closer look

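For 11 histone genes the effects of the knockdowns, each against the same si-Ctr libraries, differed from each other by the direct edgeR comparison of si-ZBTB11 with si-SET (adjusted p under 0.05). On the log2 scale, the value in si-ZBTB11 minus that in si-SET was 0.53 for HIST1H2AC, 0.51 for HIST1H2BK, 0.62 for HIST1H2BJ, 0.44 for HIST1H2AG, 0.41 for HIST1H4I, 0.46 for HIST1H2BC and 0.15 for H3F3A. It was −0.42 for H1F0, −0.92 for HIST1H2BH, −0.13 for H2AFZ and −1.54 for HIST2H2AC. HIST1H2BC had 152 and 119 counts in si-Ctr and 154 and 149 in si-ZBTB11, and HIST2H2AC at most 33 counts in any library.

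HIST1H2BK was called in opposite directions against si-Ctr, and both calls were kept under all alternatives run. The calls of HIST1H2AC, HIST1H2BK, HIST1H2BH and H1F0 in the direct comparison were kept as well. That of HIST1H2BC ended whichever library was left out.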

How the results depend on the processing

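No call on a named gene reversed. Of 33 called values of named histone genes, 16 were kept under all alternatives, 18 with each library left out in turn and 18 under the other settings. Of 39 values not called, 5 were called under some alternative. Where a library was left out, the lone library of its group was assumed to vary like the others. The cause of the changes was not tested.

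For si-SET against si-Ctr, the 10 lower genes were 6 with DESeq2 and 7 to 10 with a library left out, and the 2 higher were 2 to 3. For si-ZBTB11 against si-Ctr, the 6 higher genes were 3 with DESeq2, 3 with library size only, 3 with all 6 libraries in one fit and 3 to 4 with a library left out. The 4 lower were 1 with DESeq2 and 2 to 5 with a library left out. For si-ZBTB11 against si-SET, the 7 higher were 3 with DESeq2 and 4 to 6 with a library left out, and the 4 lower were 2 with DESeq2 and 2 to 4. With an absolute log2 fold change over 1 added to the adjusted p, the counts of higher and lower genes became 0 and 1 for si-SET, 0 and 0 for si-ZBTB11, and 0 and 1 for the direct comparison.

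At the criteria of the study, si-SET had 3 genes, 1 with DESeq2, 1 with a minimum of 10 counts per library and 1 to 2 with a library left out. For si-ZBTB11 the count of 0 became 1 under the replicate block and 0 to 1 with a library left out. The direct comparison had 1 gene, 2 with every gene of at least 1 count, 0 with a minimum of 10 counts per library and 1 to 2 with a library left out.

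Deviations of same-numbered libraries correlated at 0.0676, 0.0258 and 0.0426 over 11724 genes. Counting noise lowers such values, so they do not exclude a pairing by replicate number, which the main fits did not use. With the replicate number as a block, the higher and lower counts were 3 and 11 for si-SET, 5 and 6 for si-ZBTB11 and 8 and 4 for the direct comparison.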
